A study of Mus musculus with 6 samples.

Results

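A set of 6 genes for metabotropic glutamate receptors, Grm2, Grm3, Grm4, Grm5, Grm7 and Grm8, were followed in RNA-seq of the mouse hippocampus. They were taken by symbol from the deposited table, where each symbol had 1 row, so they make up 6 of 31838 genes, and all 6 passed the filter on low counts that left 20428 genes for testing. The remaining receptor genes of the family are not analysed here. The samples were polyadenylated RNA from wild type C57BL/6 mice aged 4 months, in 2 groups of 3 libraries: a corn oil group, which is the control, and a BBP group, treated with butyl benzyl phthalate, a plasticiser, at 50 mg/kg/day. The labels give neither the sex of the mice, nor the route and length of dosing, nor whether each library came from its own animal, so each p-value reflects only how these libraries vary, which may be technical. The series names cognitive impairment as its subject, and the comparison made here asks whether these receptor transcripts differed between BBP and corn oil.

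Metabotropic glutamate receptors are G protein-coupled receptors that sense glutamate and act more slowly than the glutamate-gated ion channels. Group I receptors, here Grm5, couple to Gq and phospholipase C, sit mostly on the postsynaptic side and drive a form of long-term depression in the hippocampus. Group II (Grm2 and Grm3) and group III (Grm4, Grm7 and Grm8) couple to Gi and Go, lower cyclic AMP, and many of them sit on axon terminals, where they restrain transmitter release. Grm2 is known from the mossy fibre terminals of dentate granule neurons, Grm3 from astrocytes as well as neurons, and Grm7 from active zones.

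Grm3 had the largest fold change of the members, and its upstream sequence is shown beside that of Grm2, the other member of group II. Each run is the 250 bases before the transcription start in RefSeq (GRCm38.p6), 5′ to 3′ on the strand of the gene, which is the minus strand for both. The Grm2 window is chr9:106656110-106656359 and the Grm3 window is chr5:9725353-9725602. Capitals mark matches on either strand to a GC box (GGGCGG) or a CCAAT box (CCAAT), and in Grm2 the CCAAT match overlaps 1 of the GC boxes.
Grm2: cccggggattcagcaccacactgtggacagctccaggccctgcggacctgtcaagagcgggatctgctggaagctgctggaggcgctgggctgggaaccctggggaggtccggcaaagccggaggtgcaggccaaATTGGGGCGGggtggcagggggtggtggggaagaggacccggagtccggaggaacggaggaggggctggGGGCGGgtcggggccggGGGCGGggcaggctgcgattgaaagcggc
Grm3: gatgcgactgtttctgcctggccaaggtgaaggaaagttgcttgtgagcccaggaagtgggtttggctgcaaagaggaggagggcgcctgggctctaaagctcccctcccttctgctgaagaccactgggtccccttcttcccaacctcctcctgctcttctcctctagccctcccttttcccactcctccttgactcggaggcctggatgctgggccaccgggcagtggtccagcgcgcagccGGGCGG
The Grm2 window held 3 GC boxes, 1 CCAAT box and 16 CpG pairs at 71.2% G and C, and the Grm3 window held 1 GC box and 8 CpG pairs at 62.4%. Over 32851 RefSeq windows of the same length, 32.7% held a GC box and 33.8% a CCAAT box, and the medians were 6 CpG pairs and 52.4% G and C. Neither window held a TATA box (TATAAA, in 12.4% of all windows) or a half-site of the cAMP response element (TGACG, in 17.8%). These are matches of letters and not binding sites. The RefSeq starts, 106656109 for Grm2 and 9725352 for Grm3, lie outside the deposited gene ends of 106656080 and 9725170. Of the members, Grm2, Grm3, Grm7 and Grm8 had entries in the RefSeq table, and Grm4 and Grm5 had none.

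The deposited estimated counts summed to between 62477604 and 68422361 per library, and about 4 of them were taken to stand for 1 fragment. The tissue label was checked against markers, all of which were above 0 in every library. Dentate granule markers such as C1ql2 (9.89 to 26.6 FPKM, the deposited level scaled for length and depth) and CA1 pyramidal markers such as Mpped1 (44.9 to 51.4 FPKM) were present throughout. BBP library 1 stood apart in several neuronal lists. Its 14 striatal markers had a median log2 CPM (counts scaled to library size) 1.68 above the corn oil mean and its 10 isocortex markers 0.90 above it, against -0.34 to 0.25 and -0.18 to 0.23 in the other libraries. Adora2a, which marks striatal neurons, reached 6.67 FPKM there and was at 0.444 to 1.01 elsewhere. All 14 striatal markers had log2 fold changes above 0, and their FPKM summed to 237 in BBP library 1 and to 66.0 to 112 elsewhere. Lamp5, a marker of isocortex, was at 64.5 FPKM there and at 14.6 to 20.7 elsewhere. Relative to the corn oil mean the median of its dentate granule markers stood at -0.95, and their FPKM summed to 28.2 against 43.8 to 63.0 elsewhere. The median of its CA2 and CA3 markers stood at -0.82, but their sum was the highest, at 269 FPKM against 172 to 212 elsewhere, since Pcp4, the most abundant of them, was at 226 FPKM against 95.1 to 148. BBP library 2 had high oligodendrocyte markers (0.57), as did BBP library 1 (0.53), while the other 4 libraries had -0.15 to 0.29. Corn oil library 3 stood apart in the 7 choroid plexus markers, with a median of 0.67 against -0.63 to -0.07 elsewhere. Their FPKM summed to 374 there and to 49.4 to 120 elsewhere, with Ttr at 366 against 44.5 to 115. The dentate granule median of corn oil library 3 was -0.43. In bulk tissue, fewer cells of a type and less RNA per cell cannot be told apart.

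Across the hippocampal libraries Grm5 was the most abundant of the 6 transcripts and Grm8 the least. Mean levels over the 6 libraries were 18.1 ± 1.96 FPKM (SD, n = 6) for Grm5, 11.7 ± 2.31 for Grm2, 7.41 ± 2.02 for Grm3, 6.60 ± 0.446 for Grm7, 2.56 ± 0.451 for Grm4 and 0.733 ± 0.0682 for Grm8. Grm5 thus had 24.8 times the FPKM of Grm8, and it was higher than 87.8% of the tested genes by mean FPKM, where Grm8 was higher than 30.9%. In the order of levels, the ranges of Grm5 and Grm2 overlapped over libraries, although Grm5 was the highest member within each of the 6. The ranges of Grm2 and Grm3 overlapped, as did those of Grm3 and Grm7. Grm7 and Grm4 did not overlap, and neither did Grm4 and Grm8. The order was Grm5, Grm2, Grm7, Grm3, Grm4, Grm8 in all 3 corn oil libraries and in BBP library 3. In BBP library 2 Grm3 passed Grm7, and in BBP library 1 Grm3 passed both Grm7 and Grm2. The rank of Grm3 against Grm7 also depends on the length used, since scaling CPM by the longest transcript placed Grm7 (10.3 CPM per kilobase) above Grm3 (8.28).

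**Figure D1:**
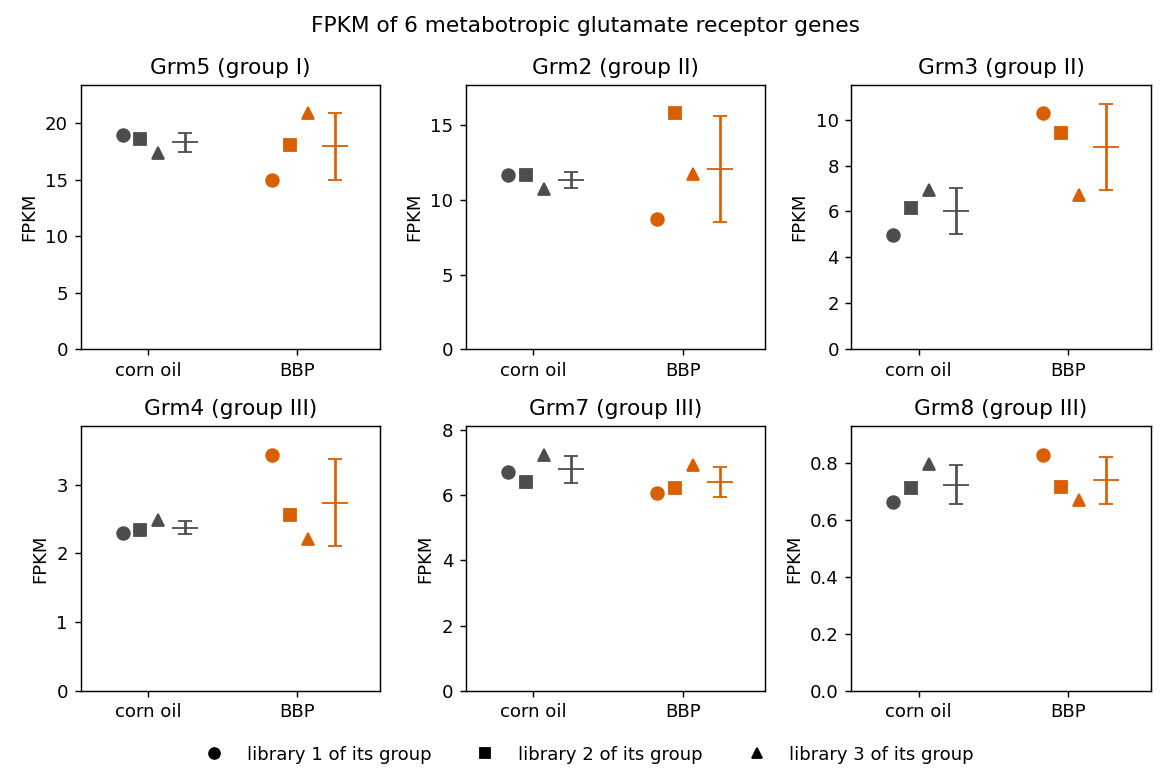
FPKM (y axes, from 0) of the 6 receptor genes in each library, with 1 panel per gene and a symbol for each library number; the bars beside the points are mean ± SD over 3 libraries of a group. BBP library 1 (circles) is the highest or lowest of the 6 libraries in every panel, and the BBP points spread more widely than the corn oil points in all 6.

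None of the 6 receptors passed the test between BBP and corn oil, and Grm3 showed the widest separation of means. Of the 6 genes, 4 had a positive and 2 a negative log2 fold change, with a median of 0.09 against 0.01 over all tested genes. In edgeR's quasi-likelihood test 0 of 6 had an adjusted p under 0.05, as did 0% of the 20428 genes tested, and the members' adjusted p ran from 0.953 to 0.998. At an unadjusted p under 0.05 there was 1 member, Grm3, against a background of 3.35% of tested genes (1.98% higher and 1.37% lower in BBP). That count depends on single libraries: in edgeR the unadjusted p of Grm3 rose to 0.0638 with corn oil library 1 left out and to 0.0601 with BBP library 2 left out. It stayed under 0.05 without corn oil library 2 (0.0392), corn oil library 3 (0.0162), BBP library 1 (0.0464) or BBP library 3 (0.0016). With BBP library 3 left out, Grm4 had an unadjusted p of 0.0270 in edgeR. The background differed between these fits. At an unadjusted p under 0.05 there were 1530 of 21088 genes without BBP library 3 and 1475 of 21072 without BBP library 1. There were 476 of 21133 without corn oil library 2 and 462 of 21012 without corn oil library 3, against 685 of 20428 over all libraries. DESeq2 called 0 of the 6 as well. For 0 of 6 members did the 3 BBP FPKM values lie entirely above or entirely below the 3 corn oil values, which was the case for 9.65% of tested genes. The standard errors of the members were 0.09 to 0.21 on the log2 scale, with a median of 0.16, against 0.18 over all genes.

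The group I receptor Grm5 (chromosome 7, 87584168 to 88130869, plus strand, mm10) had 19.0, 18.6 and 17.4 FPKM in corn oil libraries 1 to 3 and 15.0, 18.1 and 20.9 in BBP libraries 1 to 3. The BBP values bracketed the corn oil values on both sides, with BBP library 1 the lowest and BBP library 3 the highest of all. The group means were 18.3 ± 0.853 FPKM (SD, n = 3) and 18.0 ± 2.96, and the fold of BBP over corn oil was 0.998, with a 95% interval of 0.817 to 1.22 (edgeR, adjusted p = 0.998). Without BBP library 1 the log2 fold change was 0.12, and without corn oil libraries 1 or 2 it was 0.025 or 0.0095, against -0.0035 over all libraries.

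Grm2, the group II receptor of mossy fibre terminals (chromosome 9, 106643095 to 106656080, minus strand), had 11.6, 11.7 and 10.7 FPKM in corn oil libraries 1 to 3, and BBP libraries 1 to 3 had 8.69, 15.8 and 11.7. Its corn oil libraries lay close together, while BBP library 1 was below and BBP library 2 above all of them. The means were 11.3 ± 0.531 and 12.1 ± 3.56 FPKM (SD, n = 3), and the log2 fold change was 0.12 ± 0.21 (SE, edgeR adjusted p = 0.966), a fold of 1.09 with a 95% interval of 0.777 to 1.52. It turned to -0.17 without BBP library 2 and was 0.32 without BBP library 1. The medians of the dentate granule, CA1, and CA2 and CA3 markers were likewise lowest in BBP library 1 (-0.95, -0.34 and -0.82). They were highest in BBP library 2 (0.50, 0.27 and 0.119), with corn oil library 1 nearly level for CA2 and CA3 (0.118). The part of these marker lists in the Grm2 values was not tested.

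Grm3 (chromosome 5, 9485541 to 9725170, minus strand), the group II receptor found in astrocytes and neurons, had 4.96, 6.16 and 6.93 FPKM in corn oil libraries 1 to 3, and BBP libraries 1 to 3 had 10.3, 9.41 and 6.72. BBP libraries 1 and 2 were above every corn oil library, while BBP library 3 was within the corn oil range, so that the groups overlapped. The means were 6.02 ± 0.994 and 8.80 ± 1.85 FPKM (SD, n = 3). The fold was 1.49, with a 95% interval of 1.097 to 2.03, and the log2 fold change of 0.58 ± 0.19 (SE) had an unadjusted p of 0.0168 and an adjusted p of 0.953 in edgeR. The log2 fold change was 0.47 without BBP library 1, 0.48 without BBP library 2, 0.76 without BBP library 3, and 0.13 with both BBP libraries 1 and 2 left out. Those 2 libraries are also the ones with high oligodendrocyte markers, whose 9 log2 fold changes were all above 0, with a median of 0.36. The list summed to 520 to 711 FPKM in corn oil and to 832, 843 and 579 in BBP libraries 1 to 3. The 9 astrocyte markers had medians of 0.04, 0.11 and 0.15 in BBP libraries 1 to 3 and -0.06 to 0.05 in corn oil. The 5 markers of oligodendrocyte precursors had -0.19, -0.10 and -0.09 in BBP and -0.07 to -0.0016 in corn oil. Striatal medians were 1.68, -0.02 and -0.34 in BBP libraries 1 to 3, and -0.22 to 0.25 in corn oil. Isocortex medians were 0.90, 0.05 and -0.12 in BBP libraries 1 to 3, and -0.18 to 0.23 in corn oil. The part of cell makeup in the Grm3 difference was not tested.

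Within group II, the balance of both transcripts differed most in BBP library 1. The ratio of Grm2 to Grm3 FPKM was 2.35, 1.897 and 1.55 in corn oil libraries 1 to 3 and 0.846, 1.68 and 1.74 in BBP libraries 1 to 3. BBP library 1 was the only library in which Grm3 exceeded Grm2, and the other 2 BBP libraries were within the corn oil range.

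**Figure D2:**
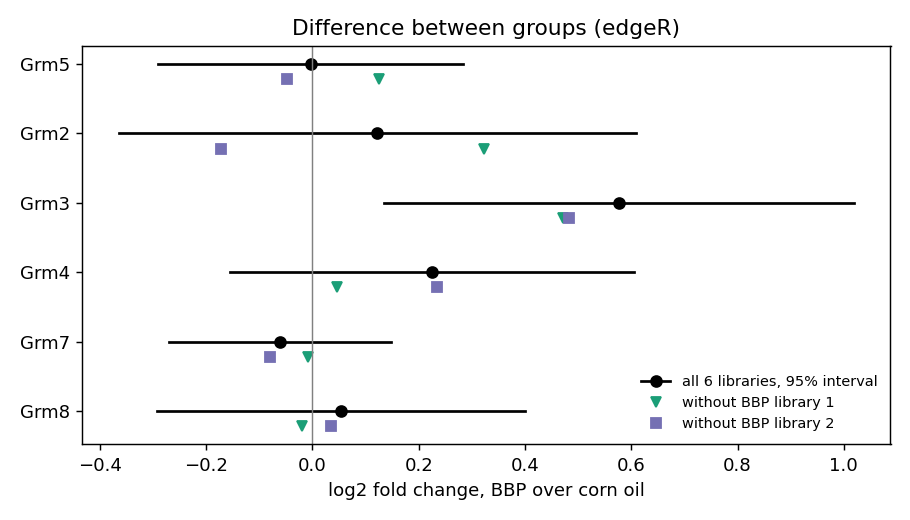
Log2 fold change of BBP over corn oil (x axis) for each receptor gene, from edgeR over all genes; circles and lines are the estimate and 95% interval over all 6 libraries, triangles leave out BBP library 1 and squares BBP library 2. The interval of Grm3 runs from 0.13 to 1.02 and those of the other 5 genes span 0, while Grm2 lies on opposite sides of 0 without BBP library 1 and without BBP library 2.

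Among the group III receptors, Grm4 (chromosome 17, 27422387 to 27513726, minus strand), best known from parallel fibre terminals of the cerebellum, had 2.30, 2.34 and 2.49 FPKM in corn oil and 3.44, 2.56 and 2.21 in BBP libraries 1 to 3. BBP libraries 1 and 2 were above the corn oil libraries and BBP library 3 below them. The means were 2.38 ± 0.1001 and 2.74 ± 0.634 FPKM (SD, n = 3), and the log2 fold change was 0.22 ± 0.17 (SE, edgeR adjusted p = 0.953), a fold of 1.17 with a 95% interval of 0.898 to 1.52. It was 0.05 without BBP library 1, 0.38 without BBP library 3, and -0.14 with both BBP libraries 1 and 2 left out. The high value of BBP library 1 came with the striatal and isocortex markers given above, whose part in it was not tested.

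Grm7 (chromosome 6, 110645581 to 111566067, plus strand), a receptor of low glutamate affinity at active zones, had the smallest standard error of the members, at 0.09. It had 6.71, 6.42 and 7.25 FPKM in corn oil and 6.07, 6.24 and 6.93 in BBP libraries 1 to 3. In FPKM, BBP libraries 1 and 2 were slightly below the corn oil range and BBP library 3 was inside it. In log2 CPM, BBP library 2 (5.44) was also inside the corn oil range of 5.39 to 5.56. The means were 6.79 ± 0.422 and 6.41 ± 0.460 FPKM (SD, n = 3), the fold was 0.959, with a 95% interval of 0.830 to 1.11 (edgeR adjusted p = 0.961), and it stayed below 1 in each of the 16 other fits, with log2 values from -0.10 to -0.0018. Any fold inside the 95% interval is compatible with these libraries, so a small rise or fall cannot be told from no difference.

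Grm8 (chromosome 6, 27275119 to 28134545, minus strand), a presynaptic receptor of high glutamate affinity, was the lowest member, with 464 to 606 estimated counts per library. Its levels were 0.664, 0.712 and 0.800 FPKM in corn oil and 0.831, 0.719 and 0.672 in BBP libraries 1 to 3. In FPKM all but BBP library 1 were within the corn oil range. In log2 CPM BBP library 3 (2.864) was just below the lowest corn oil library (2.875). The means were 0.726 ± 0.0687 and 0.741 ± 0.0820 FPKM (SD, n = 3). The log2 fold change was 0.05 ± 0.15 (SE, edgeR adjusted p = 0.980), a fold of 1.04 with a 95% interval of 0.816 to 1.32, and turned to -0.019 without BBP library 1 and to -0.0035 without corn oil library 1. It was 0.13 without corn oil library 3 and 0.14 without BBP library 3.

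Summed by receptor group, group II was higher than group I in the BBP means and lower in the corn oil means. Single libraries of both groups went against that order. In corn oil library 3 group II was above group I (17.7 against 17.4 FPKM), and in BBP library 3 it was below group I (18.4 against 20.9 FPKM). Group I, which is Grm5 alone, took 42.0%, 40.5% and 38.1% of the members' FPKM in corn oil and 33.8%, 34.3% and 42.5% in BBP libraries 1 to 3. Group II summed to 16.6, 17.8 and 17.7 FPKM in corn oil and to 19.0, 25.2 and 18.4 in BBP, or 36.7% to 38.9% and 37.5% to 47.7% of the members. Each BBP sum in FPKM was above the corn oil sums, through Grm3 in BBP library 1 and through both genes in BBP library 2. In BBP library 3, Grm2 was just above and Grm3 within the corn oil range. In log2 CPM, Grm2 in BBP library 3 (5.960) was below corn oil libraries 1 (5.979) and 2 (5.984). The corn oil mean was 17.4 ± 0.674 FPKM (SD, n = 3) and the BBP mean 20.9 ± 3.76, a log2 ratio of 0.26 that was 0.11 without BBP library 2. Group III summed to 9.89 ± 0.568 FPKM in the corn oil libraries and to 9.89 ± 0.418 in those of BBP. All 6 together summed to 45.6 ± 0.320 and 48.7 ± 4.30 FPKM, and the BBP libraries, at 44.3, 52.8 and 49.1, lay on both sides of the narrow corn oil range of 45.3 to 45.9. These sums are descriptions with no test.

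**Figure D3:**
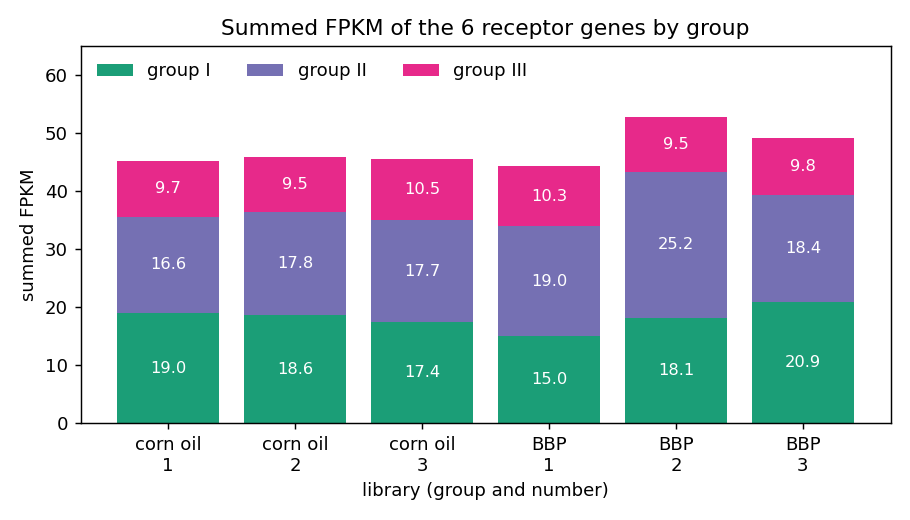
Summed FPKM (y axis, from 0) of the receptor genes in each library, stacked by group I (Grm5), group II (Grm2 and Grm3) and group III (Grm4, Grm7 and Grm8). The group II segment is tallest in BBP library 2, at 25.2, and group III stays between 9.5 and 10.5 in all 6 libraries.

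Each receptor varied more among the BBP libraries than among those of corn oil. The SD of FPKM was larger in BBP for 6 of 6 members, which was true of 72.7% of tested genes, and the ratio of SDs was 6.70 for Grm2, 6.33 for Grm4, 3.47 for Grm5, 1.87 for Grm3, 1.19 for Grm8 and 1.09 for Grm7. BBP library 1 was the lowest library for Grm5, Grm2 and Grm7 and the highest for Grm3, Grm4 and Grm8. It was thus an extreme for 6 of 6 members, a pattern noticed in the data, where it was an extreme for 42.2% of tested genes. BBP library 2, an extreme for 52.7% of tested genes, was one for 1 member, Grm2. BBP library 3 was an extreme for 2 members (Grm5 and Grm4, background 31.8%), corn oil library 1 for 2 (Grm3 and Grm8, 25.7%), corn oil library 2 for 0 (21.9%) and corn oil library 3 for 1 (Grm7, 26.6%). These extremes were taken in FPKM. In log2 CPM the lowest library for Grm8 was BBP library 3 (2.864) and not corn oil library 1 (2.875). The 3 receptors that were lowest in BBP library 1 were so together with the dentate granule, CA1 (-0.34) and CA2 and CA3 marker medians, and the 3 that were highest were so together with the striatal and isocortex medians. The part of these markers in the receptor values was not tested.

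**Figure D4:**
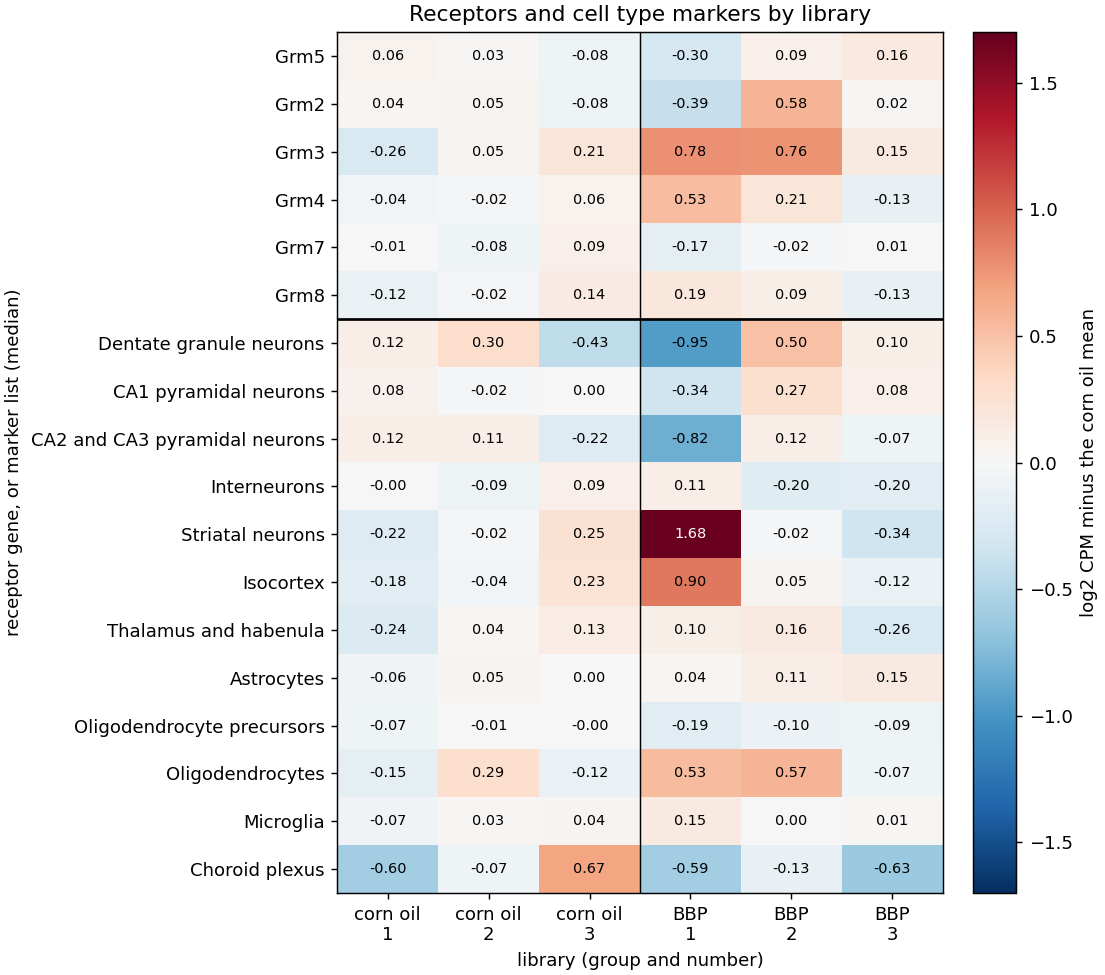
Log2 CPM minus the mean of the corn oil libraries (colour scale and printed values) in each of the 6 libraries (columns), for the 6 receptor genes (upper rows) and the median of each cell type marker list (lower rows). BBP library 1 shows Grm3 at 0.78 and Grm4 at 0.53 beside striatal markers at 1.68. It shows Grm2 at -0.39 and Grm5 at -0.30 beside dentate granule, CA1, and CA2 and CA3 markers at -0.95, -0.34 and -0.82.

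None of the genes through which these receptors signal passed the test between the groups. Over 7 lists, ordered by role, 78 genes were tested, of which 47 had a positive and 31 a negative log2 fold change, with a median of 0.05. In edgeR 0 of 78 passed an adjusted p of 0.05 and 0 had an unadjusted p under 0.05, against 3.35% of all tested genes. The BBP FPKM values lay entirely above corn oil for 6 of the 78 and entirely below for 1, against 4.4% and 5.25% of all genes. All adjusted p values named below are 0.953 or higher. The medians given below moved with single libraries: leaving out 1 at a time, they ran from 0.02 (BBP library 2) to 0.16 (BBP library 1) for the scaffolds, from 0.04 (BBP library 2) to 0.10 (corn oil library 1) for the Gi and Go effectors and from 0.04 (BBP library 2) to 0.10 (BBP library 1) for the group II and III partners. Those of the desensitisation, plasticity and glutamate lists took both signs.

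Of 13 genes of the Gq and phospholipase C branch downstream of Grm5, 11 were positive, where 52.4% of all tested genes were, with a median of 0.12 and 0 called. Without corn oil library 3 there were 8 positive genes and a median of 0.03, and the median was 0.06 without BBP library 2 and 0.18 without corn oil library 1. Plcb4, a phospholipase C beta, averaged 2.24 ± 0.227 FPKM (SD, n = 3) in the corn oil group and 3.54 ± 2.101 in the BBP group, and its BBP mean rested on 5.94 in BBP library 1 beside 2.59 and 2.08. The channel gene Trpc1 had a log2 fold change of -0.04. Of 10 group I scaffolds and anchors, 7 were positive with a median of 0.06. Ncdn, which encodes the Grm5 partner norbin, averaged 564 ± 64.1 and 497 ± 134 FPKM. Shank2, a postsynaptic scaffold, had 11.2 to 11.4 FPKM in corn oil and 11.96 to 12.8 in BBP, with no overlap and a log2 fold change of 0.14 ± 0.07 (SE). Tamalin, which links group I receptors to trafficking proteins, had -0.18 ± 0.11. Homer1, whose products bind Grm5, was singled out after its values were seen: BBP library 1 stood at 19.3 FPKM, and the remaining 5 libraries at 6.80 to 8.22.

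Of 17 Gi and Go effectors of groups II and III, 11 were positive with a median of 0.08. Gnai2, a Gi alpha subunit, had 31.8 to 34.2 FPKM in corn oil and 35.8 to 40.7 in BBP and a log2 fold change of 0.21 ± 0.10 (SE). The beta subunit genes Gnb1 and Gnb2 had -0.03 and -0.14. Of 8 partners of group II and III receptors, 4 were positive with a median of 0.06. Syn1, the vesicle protein synapsin I, averaged 169 ± 5.40 and 195 ± 35.4 FPKM, the latter with 236 in BBP library 2. Pacsin1, an endocytic adaptor, had 0.17 ± 0.10, and Grip1, a PDZ scaffold, had -0.22 ± 0.16 with all BBP libraries below corn oil in FPKM.

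Of 12 genes for desensitisation, 5 were positive with a median of -0.03. Rgs4, which speeds G protein inactivation, stood at 103 FPKM in BBP library 1, the other 5 libraries being at 34.0 to 46.4. The receptor kinase genes Grk2 and Grk5 had log2 fold changes of 0.15 and -0.15. Of 8 genes for plasticity through group I receptors, 4 were positive with a median of 0.01. Arc, an immediate early gene required for AMPA receptor removal, averaged 40.7 ± 3.59 and 46.1 ± 9.13 FPKM. Of 10 genes for glutamate release and clearance, 5 were positive with a median of 0.02. Glul, the astrocytic glutamine synthetase, averaged 299 ± 17.7 and 320 ± 30.2 FPKM. The astrocytic transporter Slc1a2 had 0.19 ± 0.09 (SE), and the vesicular transporter Slc17a6 had -0.25 ± 0.16. Rgs14, Slc17a6, Slc1a2 and Slc1a3 also belong to marker lists.

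**Figure D5:**
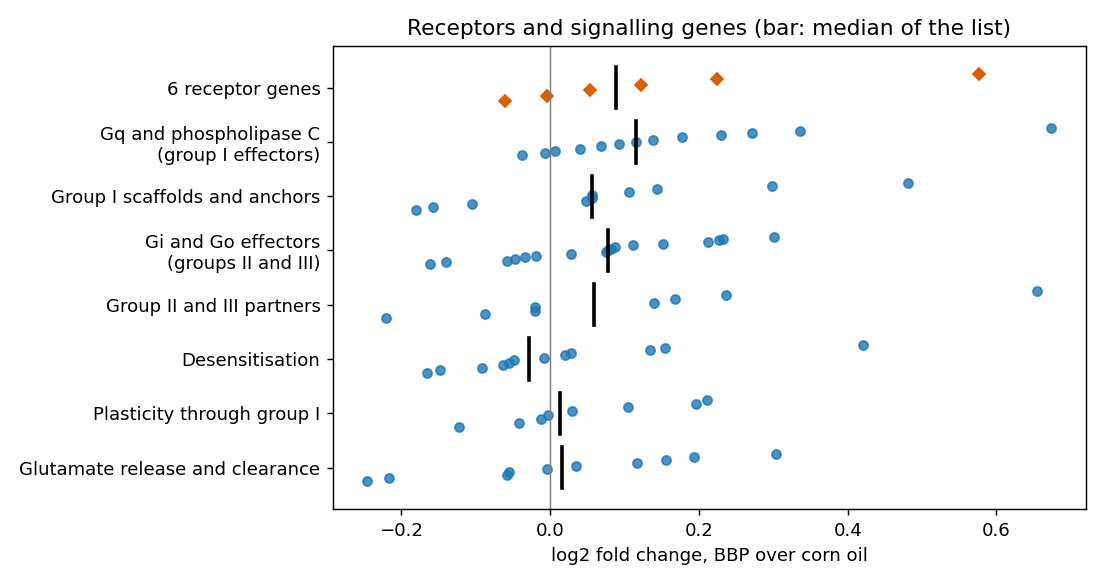
Log2 fold change of BBP over corn oil (x axis) for the 6 receptor genes (diamonds) and for each tested gene of the 7 signalling lists (points), with the median of each as a black bar. Medians lie between -0.03 and 0.12, and Grm3, at 0.58, is the receptor farthest to the right.

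The genes whose log2 CPM followed each receptor most closely over the 6 libraries were found among at least 11801 named genes with a mean of 1 FPKM or more. Pearson's r was 0.999 for Foxo1 and 0.998 for Gpd2 with Grm5, 0.999 for Smurf2 and 0.997 for Degs1 with Grm2, and 0.995 for Bcar3 and 0.987 for Tgfb3 with Grm3. For Grm4 it was 0.999 for Lpcat4 and 0.997 for Syndig1l, the latter one of the striatal markers. For Grm7 it was 0.991 for Noc4l and 0.985 for Grin3a, and for Grm8 0.994 for Rbm17 and 0.983 for Bud31. These coefficients are descriptions over 6 points that share library and scaling, and values above 0.95 were reached by 12 genes for Grm7 and by 187 for Grm5.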

How the data were processed

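RNA from the hippocampus was measured in 6 libraries, 3 of each group, grouped by the treatment label. Per the labels' protocols, RNA with an integrity number above the protocol's minimum was captured by oligo(dT), and paired-end libraries carried strand marks and molecular identifiers. The build mm10 and the tools StringTie 2.1.6, HISAT2 2.2.1 and cutadapt 1.9 are named, without roles, in the submitters' processing notes, which also list UMI-tools, edgeR and DESeq2. Counts and FPKM stand side by side for each gene and library, per the file headers. The deposited counts are whole numbers and are treated as estimated counts, since in every library more genes had 4 counts than 3 or 5. How reads were counted, and with which strand setting, is not given in the sources used here. The other genes in the table that overlap the members' spans are predicted genes with at most 69.0 counts on average (Gm20387, opposite strand, at the start of Grm7). The authors' deposited FPKM values were used as given.

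The main test was edgeR 4.0.16 under R 4.3.3 (TMM, filterByExpr, quasi-likelihood F test with treatment as the only term, Benjamini-Hochberg adjustment over 20428 genes, threshold 0.05). Each SE was obtained by dividing the absolute log2 fold change by the root of F. Log2 CPM used a prior count of 2 and the TMM factors, which were 0.948 for BBP library 2 and 1.007 to 1.013 for the other libraries. FPKM was used without these factors. Limma 3.58.1 used log2(FPKM + 1) or log2(FPKM + 0.1). The fit was also run on counts simulated from the fitted dispersions, with no library set apart. That run cannot show how a library such as BBP library 1 affects the fit. Members and lists were chosen with earlier results of these data known. The genes named are the members, 3 per signalling list (highest mean FPKM and smallest p in each direction), the 2 highest of each marker list where a result turns on them, Adora2a and Lamp5, known from earlier results of these data, and the 2 genes most like each member. Some genes that this rule names are not reported here. Alternatives are in the closing section. Replicate numbers in the titles were not taken as pairs. Plots were made in Python 3.11.15 using matplotlib 3.10.9.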

Additional observations from a re-analysis of the deposited data

How the results depend on the processing

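No receptor passed an adjusted p of 0.05 in any of the 16 other fits (14 for Grm8, which is under the FPKM minimum of 2 limma fits). Grm3 stayed positive in all 16 (0.13 to 0.76, adjusted p 0.624 to 1.00) and Grm7 negative in all 16. With BBP libraries 1 and 2 left out, which leaves 1 treated library assumed to vary like the controls, the log2 fold change was 0.16 for Grm5, -0.14 for Grm4 and -0.14 for Grm8, each on the other side of 0. Leaving out 1 library at a time, it ran from -0.094 to 0.12 for Grm5, from -0.17 to 0.32 for Grm2 and from -0.019 to 0.14 for Grm8. The cause was not tested. Over all genes, edgeR called 0 and had 685 at an unadjusted p under 0.05. By DESeq2, 3 were called (Vcp-rs, Gm2004 and Gm2274, named after the fact), the fit without BBP libraries 1 and 2 called 10, and the fits without 1 library called 0 to 3 (1 without corn oil library 2, 3 without BBP library 1), none of them a member. The unadjusted count was 1187 without BBP libraries 1 and 2, 393 to 1530 without 1 library (393 without corn oil library 1, 1475 without BBP library 1, 1530 without BBP library 3), and 396, 392 and 1068 in the limma fits with log2(FPKM + 1), with log2(FPKM + 0.1) and without a filter. The limma fits tested 13268, 13268 and 31838 genes in that order, against 20428 in edgeR over all libraries. The fits without 1 library tested 21012 to 21155. The raw counts of the limma fits therefore do not by themselves show a different share of genes. Of the unadjusted calls, 405 were higher and 280 lower in edgeR, against 147 and 249 in limma with log2(FPKM + 1). A replicate block on the title numbers gave 0 calls, 494 genes at an unadjusted p under 0.05, and 0.56 for Grm3 and 0.07 for Grm2. Deviations of same-numbered libraries correlated at -0.08, 0.08 and -0.10 over genes, so the numbers were not taken as pairs. At the assumed 4 counts per fragment, the members rested on 116 (Grm8) to 3949 (Grm5) fragments per library, so depth limits Grm8 most.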

Other observations

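Elfn1 encodes a postsynaptic adhesion protein that recruits group III receptors, Grm7 among them, to the terminals facing certain interneurons. It had 1374 and 1448 estimated counts in corn oil libraries 1 and 2 and 1273, 1859 and 1286 in BBP libraries 1 to 3, but 7 in corn oil library 3. Its FPKM was 4.68, 4.94 and 0.0201 in corn oil and 4.32, 6.35 and 4.17 in BBP, so that its log2 fold change of 0.65 ± 1.05 (SE, edgeR adjusted p = 0.965) rested on that 1 library. Grm7 was at 7.25 FPKM in corn oil library 3, the highest of the 6.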
